A study of Mus musculus with 5 samples.

Results

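Psca, Ly6d, Ppp1r1b and Clu are the genes described here. They were chosen by symbol as markers of proximal luminal progenitor cells other than keratins, and they are 4 of the 51912 genes listed. All 4 are protein-coding, and 3 of them (Ly6d, Ppp1r1b and Clu) had enough counts to be tested, among 18590 tested genes. Expression was measured by sequencing total RNA from the dorsolateral prostate of male mice aged 3 months. The 2 libraries labelled Ghr deletion came from Ghrflox/flox;ROSA26Cre-ERT2+/0 mice, in which both alleles of the growth hormone receptor gene were flanked by loxP sites and a tamoxifen-activated Cre was carried at ROSA26, a locus active in most cell types. The 3 control libraries came from Ghrflox/flox mice, which carried the same floxed alleles and no Cre. Tamoxifen was given to all 5 mice, 250 mg/kg each day over 5 days, and the prostates were collected 1 month after dosing ended. Because only one group carried Cre, an effect of Cre itself and an effect of losing the receptor cannot be told apart.

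Luminal cells near the urethra, in the proximal part of each prostatic duct, differ from the secretory luminal cells further out. In mice they survive androgen withdrawal, and they can form new glands in transplantation assays. They are recognised by surface, secreted and intracellular proteins rather than by the abundant secretions of the distal cells. Psca (prostate stem cell antigen) and Ly6d are small lipid-anchored surface proteins of the Ly6/uPAR family. Ppp1r1b, also called DARPP-32, becomes an inhibitor of protein phosphatase 1 when protein kinase A phosphorylates it. Clu (clusterin) is a secreted chaperone that binds unfolded proteins and restrains the terminal complement complex, and in the rat prostate it was cloned as a message repressed by testosterone. None of these genes is restricted to proximal luminal cells, and Clu in particular is made by many cell types.

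Depth ranged from 31740687 to 32782683 expected counts in libraries labelled Ghr deletion and from 19517831 to 41553558 in controls. Ghr itself had 21.5 and 10.2 CPM (counts scaled to a common library size) in libraries labelled Ghr deletion, against 10.1, 11.8 and 13.2 CPM in control replicates 1 to 3, with overlap. The count covers the whole gene and so does not test removal of one exon. The control libraries were not alike. Svs1, a seminal vesicle secretory gene, had 0.0454 and 7.90 CPM in libraries labelled Ghr deletion, against 32920, 22520 and 58.6 CPM in control replicates 1 to 3. In Svs1 control replicate 3 stood nearer to the libraries labelled Ghr deletion than to the other controls, but not in all genes of that tissue. Svs2 had 67740 and 118600 CPM in libraries labelled Ghr deletion, against 68570, 47340 and 140500 CPM in controls, and Pate4 was also highest in control replicate 3. Markers of prostate secretory epithelium were unevenly detected. Tmprss2 had 62.1 and 67.2 CPM in libraries labelled Ghr deletion, against 45.4, 97.4 and 32.0 CPM in controls. Others were scarce in several libraries. Hoxb13, a prostate lineage factor, was at 0 counts in Ghr deletion replicate 1 and in control replicate 3, and Pbsn, probasin, ranged from 0.0454 to 8.76 CPM in libraries labelled Ghr deletion and from 0.816 to 475 CPM in controls. The differences of the 4 genes are therefore given also without control replicate 3 and without control replicates 1 and 2.

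As proximal luminal markers the 4 genes were unevenly detected. Psca was almost absent, Ly6d and Ppp1r1b were present at low to moderate levels, and Clu was among the most abundant transcripts. On average Ly6d and Ppp1r1b lay lower in libraries labelled Ghr deletion, by about the same factor, and Clu lay higher. By edgeR's quasi-likelihood test with Benjamini-Hochberg adjustment, 0 of the 3 tested genes passed a threshold of 0.05, where 0% of all tested genes did. In bulk tissue, fewer cells of a type and less RNA per cell cannot be told apart.

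**Figure D1:**
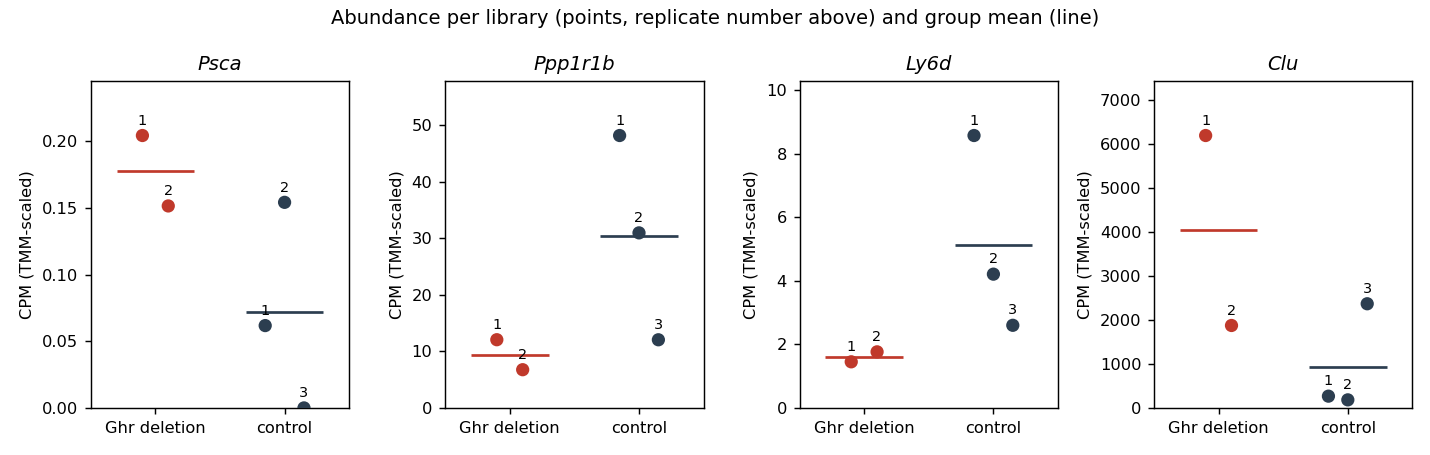
Abundance of each gene in CPM on the TMM-scaled library size (vertical axes from 0), with 1 point per library, the replicate number above it and a line at the group mean. Ghr deletion libraries (red) stand left of controls (dark). Control replicate 3 stands with the Ghr deletion libraries for Ppp1r1b and Clu, and Ly6d is the tested gene whose groups do not overlap.

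Psca (ENSMUSG00000022598, GRCm38 chromosome 15, 74714839 to 74717069, plus strand) was near the limit of detection. It had 9 and 6 counts in libraries labelled Ghr deletion, and 1, 3 and 0 counts in control replicates 1 to 3. On the scaled libraries this was 0.204 and 0.151 CPM in libraries labelled Ghr deletion, against 0.0617, 0.154 and 0 CPM in controls. Control replicate 2 fell inside the range of the Ghr deletion pair, so the groups overlapped. The 0 counts in control replicate 3 allow up to 0.0662 CPM by the floor of 3 counts, and 0.0814 CPM by the upper end of the exact two-sided interval. Exact 95% Poisson intervals, which cover counting error only, ran from 0.0934 to 0.388 CPM in Ghr deletion replicate 1 and from 0.0318 to 0.450 CPM in control replicate 2.

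Pooled over libraries, Psca had 15 counts in the Ghr deletion group and 4 in the control group. The ratio of the pooled rates was 3.63, with an exact counting interval of 1.16 to 15.02 that holds no spread between mice. Psca did not reach the minimum count for testing. With no filter on low counts, edgeR gave it a log2 fold change of 1.51 (SE 1.35, 95% interval -1.53 to 4.54, adjusted p = 0.847). The difference of group means was 0.106 CPM, or 0.0699 CPM without control replicate 3 and 0.178 CPM without control replicates 1 and 2. With the spread between mice included, no difference in Psca passed the test. TPM divides counts by transcript length and does not use the TMM-scaled library size. In TPM Psca had 0.36 and 0.20 in libraries labelled Ghr deletion, against 0.04, 0.04 and 0 in controls. The groups did not overlap on this scale, and both libraries labelled Ghr deletion lay above each control in 78.5% of tested genes.

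Ly6d (ENSMUSG00000034634, chromosome 15, 74762056 to 74763620, minus strand) is the near neighbour of Psca, 45.0 kb further along the same chromosome. It had 64 and 70 counts in libraries labelled Ghr deletion, or 1.45 and 1.77 CPM. The controls had 139, 82 and 118 counts, or 8.58, 4.21 and 2.60 CPM. Both libraries labelled Ghr deletion lay below each control, and control replicate 3 was the nearest to them. Among tested genes, 12.5% showed the same separation on the lower side. Ly6d averaged 1.61 ± 0.222 CPM (SD, n = 2) in libraries labelled Ghr deletion and 5.13 ± 3.09 CPM (SD, n = 3) in controls. The log2 fold change was -1.66 (SE 0.58, 95% interval -3.09 to -0.24), or 3.17-fold lower, with an unadjusted p of 0.0291 and an adjusted p of 0.874 by edgeR.

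The position of Ly6d depended on scaling. In TPM it had 3.15 and 2.79 in libraries labelled Ghr deletion, against 6.51, 1.39 and 2.91 in controls, so control replicates 2 and 3 lay on either side of Ghr deletion replicate 2. The log2 fold change on log2(TPM + 1) was -0.06, where the median of all tested genes stood at 0.87, which puts Ly6d 0.92 below that median. Without control replicate 3 the edgeR value was -1.99, and without control replicates 1 and 2, which leaves 1 control, it was -0.69. Without control replicate 1 it was -1.08. The adjusted p without one library ran from 0.178 to 1.

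Ppp1r1b (ENSMUSG00000061718, chromosome 11, 98348404 to 98357796, plus strand) had 532 and 268 counts in libraries labelled Ghr deletion, or 12.07 and 6.76 CPM. The controls had 781, 603 and 547 counts, or 48.2, 31.0 and 12.06 CPM. Control replicates 1 and 2 stood apart on the high side, and control replicate 3 lay just below Ghr deletion replicate 1, so the groups touched. Ppp1r1b averaged 9.42 ± 3.75 CPM (SD, n = 2) in libraries labelled Ghr deletion and 30.4 ± 18.1 CPM (SD, n = 3) in controls. The log2 fold change was -1.69 (SE 0.62, 95% interval -3.22 to -0.15), or 3.22-fold lower, with an unadjusted p of 0.0361 and an adjusted p of 0.874 by edgeR. Thus 2 of the 3 tested markers had an unadjusted p under 0.05 on the lower side, where 3.10% of all tested genes did.

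Controls differed widely in Ppp1r1b. Its highest control was 3.996 times its lowest, and that range was wider than in 93.5% of tested genes. In TPM it had 12.9 and 5.19 in libraries labelled Ghr deletion, against 17.7, 5.01 and 6.76 in controls. On log2(TPM + 1) the log2 fold change was -0.04, which is 0.91 below the median of all tested genes. Without control replicate 3 the edgeR value was -2.07 (adjusted p = 0.116). Without control replicates 1 and 2 it was -0.35 (adjusted p = 1 by edgeR).

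Whether reads of Ppp1r1b include those of an overlapping transcript was not tested. The noncoding gene 1700003D09Rik lies across it on the opposite strand and had 0.726 and 0.555 CPM in libraries labelled Ghr deletion, against 2.59, 3.802 and 0.684 CPM in controls. The library kit keeps strand, but the strand setting used for counting is not given in the sources used here. Expected counts of both genes were whole numbers in all 5 libraries, so no read was divided between them as a fraction. The CPM of 1700003D09Rik was 6.02% and 8.21% of that of Ppp1r1b in libraries labelled Ghr deletion, against 5.38%, 12.3% and 5.67% in controls. The next tested gene downstream, Stard3, a cholesterol transporter of late endosomes 572 bases away, had 18.2 and 18.0 CPM in libraries labelled Ghr deletion, against 22.2, 26.5 and 23.3 CPM in controls (log2 fold change -0.41, SE 0.19).

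Clu (ENSMUSG00000022037, chromosome 14, 65968483 to 65981547, plus strand) had 272964 and 74253 counts in libraries labelled Ghr deletion, or 6193 and 1874 CPM. The controls had 4329, 3565 and 107357 counts, or 267, 183.1 and 2368 CPM. Control replicates 1 and 2 were low, and control replicate 3 fell inside the range of the Ghr deletion pair. Clu took 0.86% and 0.227% of all counts in libraries labelled Ghr deletion, against 0.0222%, 0.0120% and 0.258% in controls. By TPM it ranked 15 and 46 among all genes in libraries labelled Ghr deletion, and 290, 350 and 43 in controls.

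Clu averaged 4033 ± 3054 CPM (SD, n = 2) in libraries labelled Ghr deletion and 939 ± 1238 CPM (SD, n = 3) in controls. The log2 fold change was 2.10 (SE 1.21, 95% interval -0.88 to 5.09), with an unadjusted p of 0.135 and an adjusted p of 0.874 by edgeR. As a fold this is 4.29, with an interval of 0.542 to 34.0. This log2 fold change was above that of 99.5% of tested genes, and the range among controls was wider than in 98.8% of them. Its highest control was 12.9 times its lowest, and Ghr deletion replicate 1 was 3.30 times Ghr deletion replicate 2. Without control replicate 3 the log2 fold change was 4.16 (adjusted p = 0.111 by edgeR). Leaving out control replicates 1 and 2 gave 0.78, and leaving out Ghr deletion replicate 1 gave 0.996.

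Clu was called on TPM, unlike Ly6d and Ppp1r1b. It had 4455 and 998 TPM in libraries labelled Ghr deletion, against 69.0, 21.6 and 896 TPM in controls, so on this scale the groups did not overlap. The same separation on the higher side held for 78.5% of tested genes. On log2(TPM + 1), limma-trend gave Clu a log2 fold change of 4.23 (SE 1.11, adjusted p = 0.00646), which is 3.36 above the median of all tested genes. On that scale 12.0% of tested genes were called higher. With effective lengths as offsets in edgeR, which keeps the TMM scaling, Clu was at 2.08 (adjusted p = 0.903). DESeq2 called none of the 3 genes, with an adjusted p of 0.337 for Ppp1r1b, 0.372 for Ly6d and 0.875 for Clu, while it called 0.464% of the genes it adjusted.

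The deposited length of a gene is the mean length of its transcripts weighted by their estimated abundance. For Clu it was 1787 and 1785 bases in libraries labelled Ghr deletion, against 1774, 1735 and 1761 bases in controls. The longest annotated Clu transcript, which is protein-coding, has 1810 bases and 9 exons, and the other 8 annotated transcripts have at most 1004. For Ppp1r1b the weighted length was 1277 and 1305 bases in libraries labelled Ghr deletion, against 1313, 1320 and 1261 bases in controls, among 7 annotated transcripts of 435 to 2001 bases. Psca and Ly6d each have 1 annotated transcript, of 860 and 744 bases. Expected counts of all 4 genes were whole numbers in all 5 libraries.

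Epithelial content was compared through 10 genes of epithelium of any type, among them Epcam, an adhesion molecule, and the simple keratins Krt8 and Krt18. Their geometric mean was 82.1 and 72.5 CPM in libraries labelled Ghr deletion, against 101, 92.6 and 83.5 CPM in controls, and 4 of the 10 genes had both libraries labelled Ghr deletion below each control, as 12.5% of tested genes did. Epcam alone lay the other way without overlap, with 185 and 140 CPM in libraries labelled Ghr deletion, against 109, 93.1 and 137 CPM in controls. Divided by the geometric mean, Ly6d was 0.0177 and 0.0244 in libraries labelled Ghr deletion, against 0.0850, 0.0455 and 0.0312 in controls, again without overlap. Ppp1r1b was 0.147 and 0.0933 in libraries labelled Ghr deletion, against 0.477, 0.335 and 0.144 in controls. Clu was 75.5 and 25.9 in libraries labelled Ghr deletion, against 2.65, 1.98 and 28.4 in controls. Psca was 0.00249 and 0.00209 in libraries labelled Ghr deletion, against 0.000611, 0.00166 and 0 in controls. Its groups no longer overlapped on this scale, where control replicate 2 had 3 counts and Ghr deletion replicate 2 had 6. The share of all tested genes that separate on this scale was not computed, so the separations of Ly6d and Psca have no background here. The order of the libraries was the same as in CPM for Ly6d, Ppp1r1b and Clu, and their log2 fold changes with this scaling were -1.35, -1.40 and 2.204, each with an adjusted p of 0.694 by edgeR.

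Other markers of proximal luminal cells lay on both sides of 0. Of 11 such genes 10 were tested, 0 passed, and 6 had a log2 fold change above 0, with a median of 0.17 against -0.0063 over all tested genes. At an unadjusted p under 0.05 there were 3 on the higher side, where 1.16% of all tested genes were, and 1 on the lower side, where 3.10% were. Wfdc2, a secreted protease inhibitor, had 1.95 and 0.934 CPM in libraries labelled Ghr deletion, against 0.432, 0.565 and 0.463 CPM in controls (log2 fold change 1.56, SE 0.50).

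The keratins split as well. Krt4 had 2.65 and 1.11 CPM in libraries labelled Ghr deletion, against 0.494, 0.308 and 0.375 CPM in controls (log2 fold change 2.26, SE 0.55). Krt7 had 8.71 and 11.8 CPM in libraries labelled Ghr deletion, against 43.9, 37.0 and 12.6 CPM in controls (log2 fold change -1.60, SE 0.56), with control replicate 3 again nearest to the libraries labelled Ghr deletion. Krt19 also lay lower, with overlap (log2 fold change -1.22, SE 0.55). Of the 10 tested markers, 3 did not overlap on the higher side, Krt4 and Wfdc2 among them, as for 10.8% of tested genes. On the lower side 2 did not overlap, Krt7 and Cldn4, as for 12.5%. Cldn4 had 31.0 and 43.7 CPM in libraries labelled Ghr deletion, against 46.4, 56.7 and 47.2 CPM in controls (-0.42, SE 0.23).

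**Figure D2:**
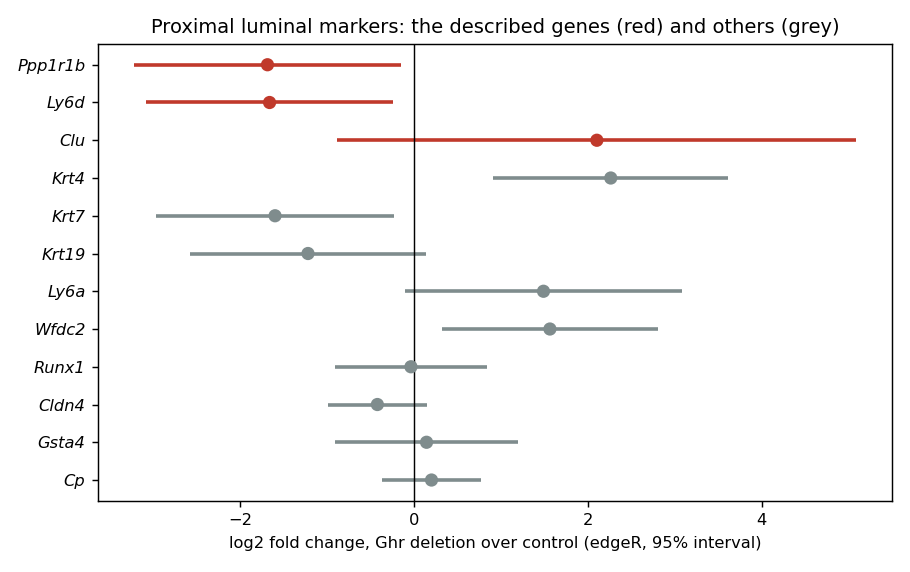
Log2 fold change of Ghr deletion over control with its 95% interval by edgeR (horizontal axis) for the 3 tested genes described here (red) and 9 other tested proximal luminal markers (grey). Ppp1r1b, Ly6d, Krt7, Krt19 and Cldn4 lie on the lower side and Clu, Krt4, Wfdc2 and Ly6a on the higher side, and none passed an adjusted p of 0.05.

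Psca and Ly6d sit in a cluster of Ly6/uPAR genes on chromosome 15. From Jrk, the last tested gene before Psca, to Gpihbp1, 48 listed genes span 897 kb. Of these, 22 were at 0 counts in every library and 10 were tested, 6 of them above 0 and 4 below (median log2 fold change 0.26, 0 passing). Lynx1, a modulator of nicotinic receptors 9010 bases away, had 16.9 and 15.3 CPM in libraries labelled Ghr deletion, against 15.8, 11.7 and 14.97 CPM in controls (log2 fold change 0.19, SE 0.22).

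Ly6e and Ly6a lay on the other side of 0 from Ly6d. Ly6e, an interferon-inducible surface protein, had 655 and 413 CPM in libraries labelled Ghr deletion, against 196, 134 and 379 CPM in controls, with no overlap (log2 fold change 1.18, SE 0.49). Ly6a, the Sca-1 antigen, had 125 and 41.5 CPM in libraries labelled Ghr deletion, against 34.9, 12.0 and 42.03 CPM in controls (1.49, SE 0.65). Over the Ly6/uPAR family in all chromosomes, 35 genes were listed, Psca and Ly6d included, 9 were at 0 in every library and 16 were tested. Of the 16, 9 lay above 0 and 0 passed, with a median of 0.17. Cd59a, an inhibitor of the complement membrane attack complex, had 32.8 and 16.7 CPM in libraries labelled Ghr deletion, against 15.4, 12.9 and 12.2 CPM in controls. Ly6g6d, at the low end, had 0.182 and 0.126 CPM in libraries labelled Ghr deletion, against 0.556, 1.28 and 0.375 CPM in controls.

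**Figure D3:**
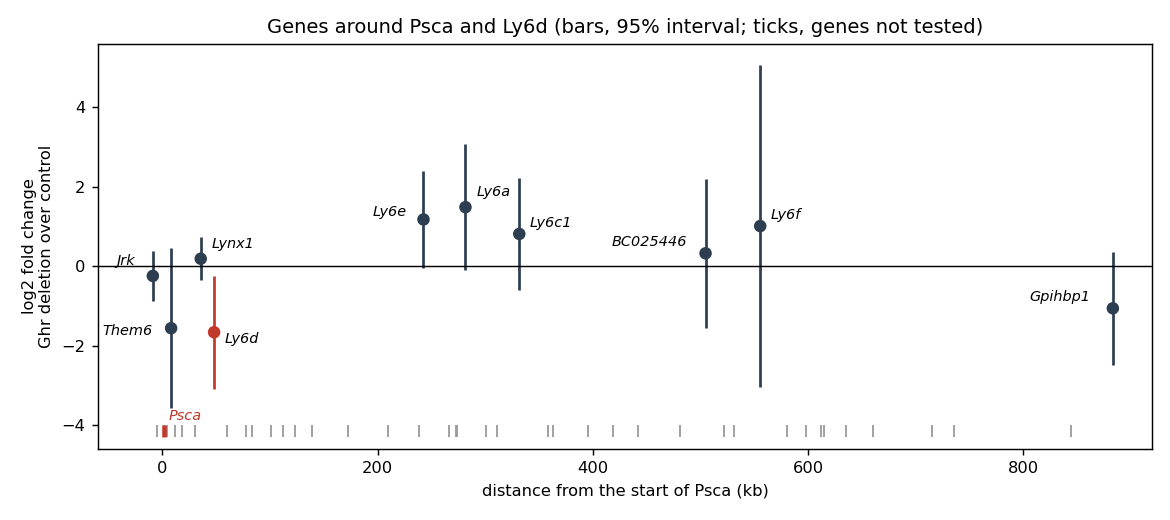
Log2 fold change of Ghr deletion over control with its 95% interval (vertical axis) for tested genes by distance from the start of Psca in kb, with ticks for genes that were not tested. Ly6d (red) lies at -1.66 while Ly6e and Ly6a, further along the cluster, lie at 1.18 and 1.49.

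Partners of Ppp1r1b were described as a list. Of 25 genes for kinases, phosphatases and receptors that act on it or with it, 22 were tested, 0 passed and 10 lay above 0, with a median log2 fold change of -0.05. Ppp1cb, a catalytic subunit of protein phosphatase 1, had 373 CPM in both libraries labelled Ghr deletion, against 262, 139 and 372 CPM in controls (log2 fold change 0.53, SE 0.43). Ppp1cc, another such subunit, had the highest TPM of the list averaged over all 5 libraries. Its CPM was 200 and 172 in libraries labelled Ghr deletion, against 233, 161 and 178 in controls, with overlap (-0.04, SE 0.25). Prkar2b, a regulatory subunit of protein kinase A, had 4.97 and 3.84 CPM in libraries labelled Ghr deletion, against 17.2, 6.42 and 4.23 CPM in controls (-1.07, SE 0.64). Drd1 and Drd2, the dopamine receptors through which Ppp1r1b is known in brain, had at most 5 counts in any library.

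Genes that work with clusterin were compared in the same way. Of 23 genes for extracellular chaperones, complement regulators, receptors and folding enzymes, Clu included, 20 were tested, 0 passed and 10 lay above 0, with a median of 0.05. Vldlr, a lipoprotein receptor that binds clusterin, had 54.3 and 51.9 CPM in libraries labelled Ghr deletion, against 49.8, 30.8 and 30.4 CPM in controls (log2 fold change 0.52, SE 0.27). Apoa1, an apolipoprotein, had 0.0227 and 0.126 CPM in libraries labelled Ghr deletion, against 0.926, 1.03 and 0.397 CPM in controls (-3.33, SE 0.92). Of 10 genes listed for a response to castration or injury, 9 were tested, 6 lay above 0 and 0 passed. Their median was 1.23. These 10 include Clu itself, and Psca, Krt4 and Ly6a, which are also among the proximal luminal markers above. Sox9 (-1.27, SE 0.61), Sult1e1 (-0.82, SE 0.81) and Igfbp3 (-0.19, SE 0.29) lay below 0. Lcn2, an iron-binding lipocalin, had 451 and 83.3 CPM in libraries labelled Ghr deletion, against 28.8, 17.0 and 73.3 CPM in controls (2.75, SE 0.87). Control replicate 3 was the highest control for Lcn2, as for Clu.

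The genes around Clu shared its order of libraries in part. Scara3, a scavenger receptor 14548 bases upstream, had 76.7 and 51.3 CPM in libraries labelled Ghr deletion, against 16.4, 11.9 and 54.1 CPM in controls (log2 fold change 1.21, SE 0.66). Ephx2, soluble epoxide hydrolase and the next tested gene downstream, had 3.54 and 10.2 CPM in libraries labelled Ghr deletion, against 0.864, 1.49 and 7.08 CPM in controls. In both, control replicates 1 and 2 were the lowest 2 of the 5 libraries.

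The most alike patterns over the 5 libraries were found by the root mean square difference of log2 CPM, each gene centred on its own mean, among 12038 candidate genes. For Clu the closest was Lum, lumican, a matrix proteoglycan of fibroblasts, at 0.126. Lum had 105 and 33.9 CPM in libraries labelled Ghr deletion, against 4.14, 2.77 and 45.2 CPM in controls. Next came Dio2, a thyroid hormone deiodinase, at 0.463 and Slc39a4, a zinc importer, at 0.497. For Ppp1r1b the closest was Podxl, podocalyxin, a surface sialomucin, at 0.0814, with 47.2 and 29.0 CPM in libraries labelled Ghr deletion, against 211, 135 and 46.3 CPM in controls. Il31ra, a cytokine receptor subunit, followed at 0.130 and Stard8, a START-domain protein, at 0.136.

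For Ly6d the closest was Ero1lb, an oxidase of the endoplasmic reticulum, at 0.111. Ero1lb had 63.2 and 79.8 CPM in libraries labelled Ghr deletion, against 404, 177.4 and 97.7 CPM in controls. Dner, a transmembrane protein that binds Notch, followed at 0.150 and Alpl, alkaline phosphatase, at 0.156. These values describe 5 libraries and carry no test. The likeness to Ly6d, Ppp1r1b or Clu is how they were chosen.

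**Figure D4:**
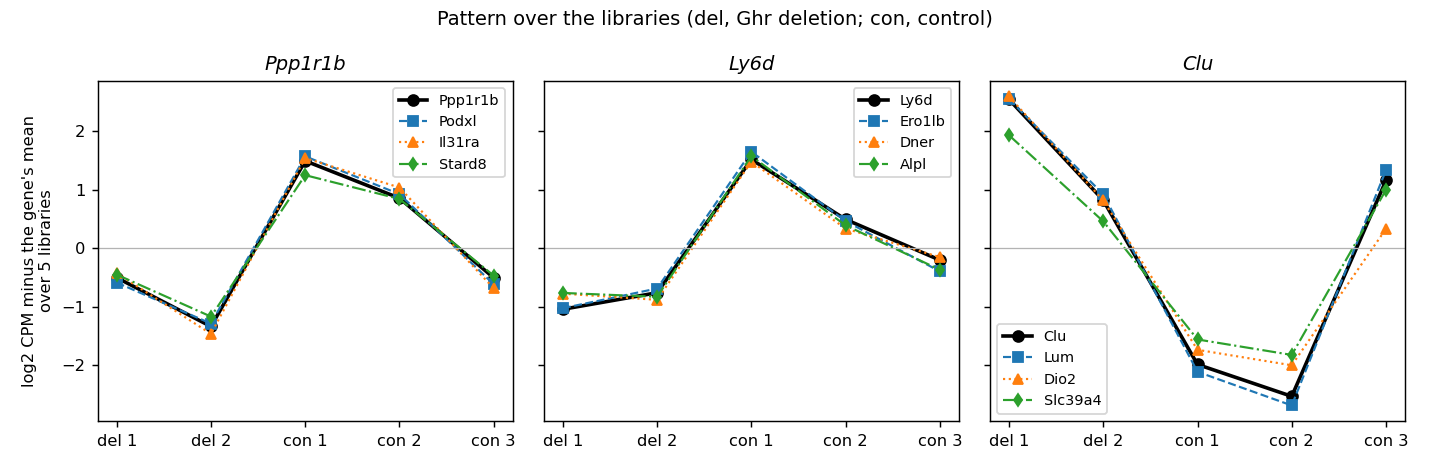
Log2 CPM minus each gene's mean over the 5 libraries (vertical axis) in Ghr deletion (del) and control (con) libraries, for each tested gene (black) and its 3 closest patterns. Ppp1r1b and Ly6d peak in control replicate 1, and Clu is lowest in control replicates 1 and 2.

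Marker lists of other cell types differed between the libraries. The 8 seminal vesicle genes summed to 105000 and 183300 CPM in libraries labelled Ghr deletion and to between 234400 and 451800 CPM in controls, and 6 of the 8 had both libraries labelled Ghr deletion below each control, as 12.5% of tested genes did. The 14 distal luminal genes summed to 105 and 293 CPM in libraries labelled Ghr deletion, against 3114, 3442 and 81.3 CPM in controls. In Ghr deletion replicate 1 the genes Hoxb13, Msmb and Spink1 were at 0, and in control replicate 3 Hoxb13 and Sbp were at 0. Control replicates 1 and 2 were the highest libraries in this sum, as they were for Ppp1r1b and Ly6d. Spink1 alone had 2937, 892 and 1.43 CPM in control replicates 1 to 3, and 0 and 0.530 CPM in libraries labelled Ghr deletion. Without Spink1, control replicate 1 would sum below Ghr deletion replicate 2, so the place of control replicate 1 rests on that gene. The part of distal luminal cells in the results for Ppp1r1b, Ly6d and Clu was not tested.

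The 10 fibroblast genes summed to 4033 and 1914 CPM in libraries labelled Ghr deletion, against 2543, 1318 and 3213 CPM in controls. The 10 smooth muscle genes summed to 7468 and 8557 CPM in libraries labelled Ghr deletion, against 6441, 2858 and 9418 CPM in controls. For the 10 macrophage genes the sums were 187 and 91.8 CPM in libraries labelled Ghr deletion, against 141, 71.4 and 107 CPM in controls. None of these 3 lists had a gene at 0. Lum, picked because its pattern was the closest to that of Clu, is one of the 10 fibroblast genes. Of these 10, 7 lay above 0, with a median log2 fold change of 0.42. From the lowest to the highest library the fibroblast sum spanned 3.06-fold and Clu 33.8-fold. The part of fibroblasts in the result for Clu was not tested. The 10 basal genes summed to 463 and 639 CPM in libraries labelled Ghr deletion, against 539, 1189 and 566 CPM in controls. Dst alone had 285 and 483 CPM in libraries labelled Ghr deletion, against 309, 921 and 386 CPM in controls, so it dominates the sum. Of the 9 tested basal genes, 1 lay above 0, with a median log2 fold change of -0.49 and 0 passing. In 4 of them both libraries labelled Ghr deletion lay below each control, as for 12.5% of tested genes. The 10 urothelial genes, a tissue that also makes Psca, summed to 116 and 155 CPM in libraries labelled Ghr deletion, against 207, 241 and 94.4 CPM in controls, with Upk3a at 0 in every library. Of the 12 tested genes of growth hormone and STAT5 signalling, 8 lay above 0 and 0 passed, with a median log2 fold change of 0.13. Stat5a (-1.06, SE 0.52) and Stat5b (-0.90, SE 0.37) lay below 0. Stat5b had 58.9 and 45.4 CPM in libraries labelled Ghr deletion, against 105, 128 and 58.5 CPM in controls, with overlap.

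**Figure D5:**
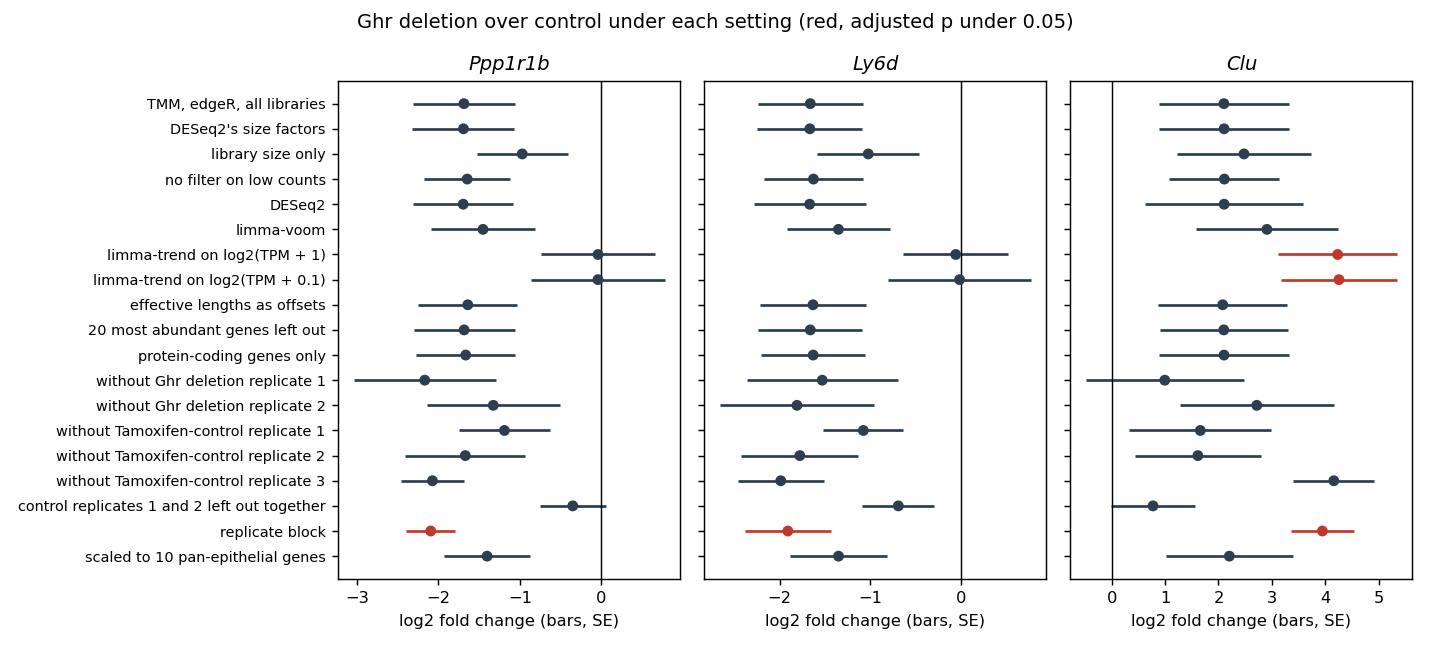
Log2 fold change of Ghr deletion over control with its SE (horizontal axes) for Ppp1r1b, Ly6d and Clu under each setting (rows), in red where the adjusted p was under 0.05. Values on TPM are near 0 for Ppp1r1b and Ly6d and 4.23 to 4.26 for Clu, and all 3 genes are closest to 0 among the edgeR fits without control replicates 1 and 2.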

How the data were processed

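Expected counts and TPM per gene were deposited by the authors for each of the 5 libraries. Per the submitters' processing notes, the tools were bcl2fastq 2.20.422, STAR 2.5.3a and RSEM 1.3.0 on GRCm38. For the annotation release and the strand option, nothing is stated in the sources used here. Per the labels' protocols, libraries were stranded total RNA. The effective and weighted lengths deposited in the same tables were used as lengths only.

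Expected counts were rounded and fitted with edgeR 4.0.16 in R 4.3.3 (TMM scaling, filterByExpr, quasi-likelihood test, Benjamini-Hochberg adjustment over 18590 genes), Ghr deletion over control. The design text calls the samples biological replicates. SE is the log2 fold change over the root of F, and CPM uses the TMM-scaled library size. The biological coefficient of variation was 42.7%. TPM was tested with limma 3.58.1 on log2(TPM + 1), a scale that understates changes of low genes. DESeq2 1.42.0, other scalings, filters and omissions were alternatives. Scaling to the 10 pan-epithelial genes was added after seeing the data. An exact permutation test of 3 against 2 libraries cannot go below p = 0.2, so none is given. The procedure was tested on simulated data.

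Symbols matched 99.5% of gene IDs, and positions come from GENCODE M21 on GRCm38. The members and lists were chosen with earlier results of these data known. Other genes were named by a rule: of each list up to 4 genes with the smallest p-values and the highest mean TPM, plus nearest tested neighbours and the 3 closest patterns per gene. Hoxb13, Pbsn, Tmprss2, Msmb, Sbp, Svs2, Pate4, Upk3a, Drd1, Drd2, Krt8, Krt19, Cldn4, Sox9, Sult1e1 and Igfbp3 were named outside that rule, after their values were seen. Svs1, Epcam and Ppp1cb rank last of the 4 in their lists and were likewise picked over some with a smaller p. The RefSeq promoter table held entries for 0 of the 4 genes. One proximal luminal marker enters the list counts and is not reported here by name.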

Additional observations from a re-analysis of the deposited data

How the results depend on the processing

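No alternative reversed the direction of Psca, Ly6d, Ppp1r1b or Clu. Ly6d and Ppp1r1b stayed on the same side of the threshold in 17 of 18 alternatives, and Clu in 15 of 18. The exceptions were the replicate block, for all 3, and TPM, for Clu, and their cause was not tested. On log2(TPM + 1) Clu was at 4.23, and on log2(TPM + 0.1) at 4.255 (adjusted p = 0.00590 by limma). With the replicate block, edgeR gave -2.095 for Ppp1r1b (adjusted p = 0.00103), -1.911 for Ly6d (adjusted p = 0.0341) and 3.945 for Clu (adjusted p = 0.00135). The labels name no shared batch, and control replicate 3 has no partner in that fit. Deviations of same-numbered libraries from their group means correlated at 0.281 and 0.296, over 2 pairs only. With 2 libraries labelled Ghr deletion, their deviations mirror each other, so the crossed pairs gave -0.281 and -0.296. These correlations therefore cannot decide whether same-numbered libraries belong together. Leaving out one library at a time gave -2.17 to -1.19 for Ppp1r1b, -1.99 to -1.08 for Ly6d, 0.996 to 4.16 for Clu and a difference of 0.0699 to 0.147 CPM for Psca. For that difference of Psca the other alternatives recomputed were 2 scalings and the joint omission of control replicates 1 and 2.

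The number of genes called over the whole table was 0 by edgeR, with 792 at an unadjusted p under 0.05. It was 81 by DESeq2, 2 without the low-count filter, 2294 on log2(TPM + 1), 733 on log2(TPM + 0.1) and 1126 with the replicate block (552 higher, 574 lower). Leaving out one library gave 0 to 48, the 48 without control replicate 3. On library size alone the median of all genes stood at 0.58, on log2(TPM + 1) at 0.87 and on log2(TPM + 0.1) at 1.33. Depth limits Psca, at 0 to 9 counts per library.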
